A study of Homo sapiens with 6 samples.

Results

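The genes described here encode the core of the RAS to ERK signaling route: the RAS GTPases HRAS and NRAS, the RAF kinases ARAF and BRAF, the MEK kinases MAP2K1 and MAP2K2, and the ERK kinase MAPK3. They were taken from the expression table by gene symbol, in a choice made with earlier results of these data known, and are 7 of the 26255 genes listed in it. The RNA-seq experiment asked how the transcriptome of a RAS-mutant lung cancer cell line differs after depletion of Ephexin1 (gene symbol NGEF), a guanine nucleotide exchange factor. All 6 libraries came from NCI-H1299, a human non-small cell lung cancer line known to carry an activating NRAS mutation, grown in RPMI-1640 with serum. The 3 shControl libraries were made from cells carrying a control shRNA in a pSilencer2.1-U6 plasmid and the 3 shEphexin1 libraries from cells carrying an Ephexin1 shRNA in the same type of plasmid. The drug-resistance cassette of the plasmid is given as neo in the sample labels and as hygro in the study's methods. The methods describe stable knockdown clones kept under drug selection for weeks, and the 3 shEphexin1 columns share 1 name stem, so these libraries may all come from 1 clone. The p values therefore measure the spread between libraries, which may be technical, and a difference between clones and an effect of the shRNA cannot be told apart.

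RAS proteins are membrane-bound switches that are active when they hold GTP and inactive when they hold GDP. Active RAS recruits RAF kinases to the plasma membrane, RAF phosphorylates MEK, and MEK phosphorylates ERK, which enters the nucleus and acts on transcription factors of growth and proliferation genes. The route is driven mainly by changes in protein activity, which mRNA levels do not report. In lung cancer it is often locked in the active state by mutations in RAS or RAF genes.

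Expression is given as FPKM, the sequenced fragments of a gene scaled by its transcript length and by the size of the library. Read counts do not accompany the FPKM, and the depth of a library is unknown. Differences are given as log2 fold changes of shEphexin1 over shControl on the scale log2(FPKM + 0.1), fitted with limma over 16020 genes, with the adjusted p taken over all of them. A gene was called when its adjusted p was at most 0.025 and its fold difference at least 2. In shControl, the targeted NGEF mRNA measured 13.3, 11.7 and 16.4 FPKM, compared with 9.81, 8.25 and 10.5 FPKM in shEphexin1. Its log2 fold change was -0.53 (SE 0.163, limma adjusted p = 0.103), and it was not called. Every shEphexin1 library was under every shControl library, as for 15.4% of all genes tested. The study's methods report that the stable knockdown was checked at the protein level by western blot. The cells carried mesenchymal markers, led by VIM, at a summed 2004 to 2357 FPKM in shControl and 2265 to 2692 FPKM in shEphexin1. They also carried the epithelial keratin KRT18, while CDH1 and the lung lineage markers NKX2-1 and SCGB1A1 were listed at 0 in all 6 libraries. Of the other lung lineage markers, SFTPB was at 0.151 to 0.312 FPKM, and SFTPC was at 0 except for 0.125 FPKM in shControl replicate 3. The summed FPKM of 6 epithelial markers was 73.9 to 121 in shControl and 39.8 to 59.1 in shEphexin1. Most of this sum was KRT18, with means of 88.9 and 46.2 FPKM. KRT8 and KRT7 were also lower in shEphexin1, EPCAM was higher (means of 0.0409 and 0.173 FPKM) and KRT19 was near 0 in both groups. The part of the difference in this sum in the results that follow was not tested. The summed markers of fibroblasts, endothelium, immune cells and erythroid cells stayed under 1 FPKM in every library, from 0 to 0.861 FPKM.

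None of the RAS, RAF, MEK and ERK genes was called in Ephexin1-depleted H1299 cells (0 of 7, against 1.89% of all genes tested, 0.893% higher and 0.999% lower), and none had an adjusted p of at most 0.025 at any fold (3.41% of all genes tested). Their mRNAs were all present, between the 56.2 and the 94.7 percentile of the genes tested. The fitted differences were negative for 5 genes (HRAS, NRAS, MAP2K1, MAP2K2 and MAPK3) and positive for 2 (ARAF and BRAF), with a median of -0.26 against -0.0093 over all genes tested. NRAS at 76.3% and BRAF at 129% of the control mean stood furthest from equality, and ARAF was almost level between the groups. For each gene the 95% interval of the log2 fold change lay inside a 2-fold difference in either direction, and a fold under 2 was also fitted for 94.2% of all genes. As these are bulk samples, fewer cells expressing a gene and less RNA per cell cannot be told apart.

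**Figure D1:**
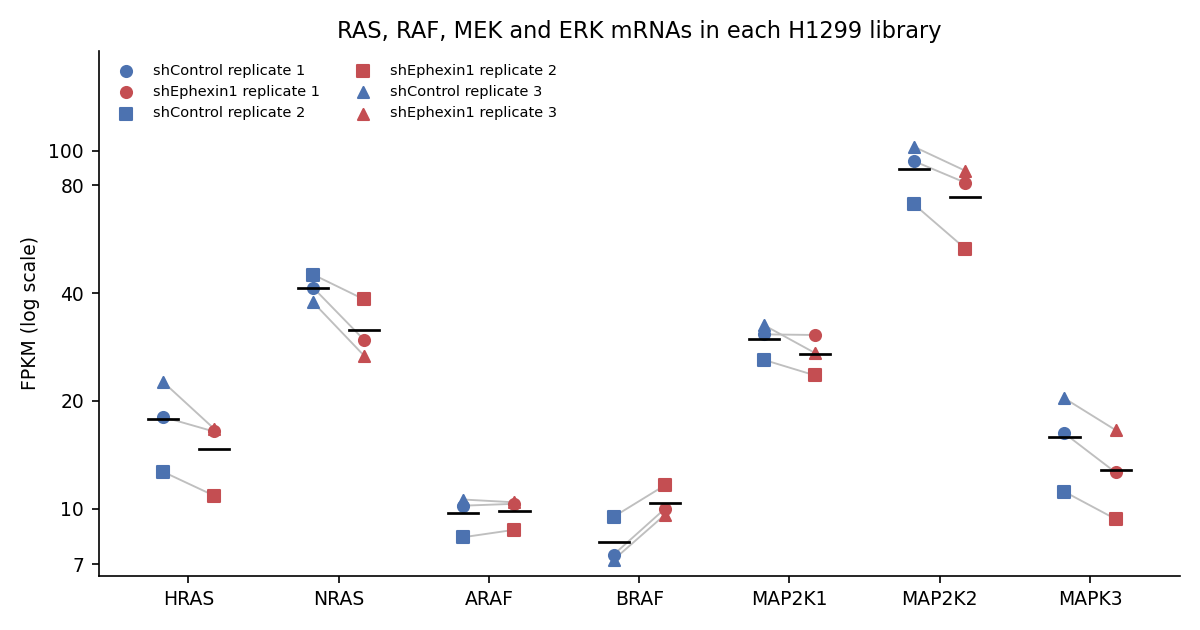
FPKM (log axis) of each gene in the 3 shControl (blue) and 3 shEphexin1 (red) libraries, with a marker shape for each replicate number, grey lines joining libraries of the same number and black bars for group means. HRAS, NRAS, MAP2K1, MAP2K2 and MAPK3 slope downwards in all 3 pairs, BRAF slopes upwards in all 3, and replicate 2 (squares) sits apart for most genes.

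HRAS encodes a RAS GTPase that cycles between the Golgi and the plasma membrane through reversible palmitoylation. The gene spans positions 532242 to 537321 of chromosome 11 (GRCh37, minus strand). HRAS mRNA measured 18.0, 12.7 and 22.6 FPKM in shControl replicates 1 to 3, against 16.4, 10.9 and 16.7 FPKM in shEphexin1 replicates 1 to 3. Replicate 2 was the lowest library of both groups and the groups overlapped. The means were 17.8 ± 4.98 FPKM (SD, n = 3) and 14.7 ± 3.30 FPKM (SD, n = 3). The fitted log2 fold change was -0.26 (SE 0.251, 95% interval -0.85 to 0.32, limma adjusted p = 0.591), within the spread between libraries. A two-sided exact permutation test gave p = 0.4, where 0.1 is the smallest value that 3 libraries against 3 allow.

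NRAS encodes the RAS GTPase whose mutant form H1299 cells express, and spans positions 115247090 to 115259392 of chromosome 1 (minus strand). The control libraries had NRAS mRNA at 41.4, 45.1 and 37.7 FPKM, and the Ephexin1-depleted libraries at 29.6, 38.4 and 26.7 FPKM. Here replicate 2 was the highest library of both groups, and the shEphexin1 replicate 2 value lay just above the lowest control, so the groups overlapped by 1 library. The means were 41.4 ± 3.68 FPKM (SD, n = 3) and 31.6 ± 6.08 FPKM (SD, n = 3), and the log2 fold change was -0.40 (SE 0.155, 95% interval -0.77 to -0.04). Its unadjusted limma p was 0.0336 and its adjusted p was 0.174, which misses the threshold, and the two-sided exact permutation p was 0.2. FPKM do not separate mutant from normal NRAS transcripts.

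ARAF encodes the RAF kinase with the weakest basal activity of its family and spans positions 47420604 to 47431307 of the X chromosome (plus strand). ARAF mRNA measured 10.2, 8.32 and 10.6 FPKM with the control shRNA and 10.3, 8.73 and 10.4 FPKM with the Ephexin1 shRNA. The libraries of the same number nearly coincided. The means were 9.71 ± 1.22 FPKM and 9.82 ± 0.946 FPKM (SD, n = 3 each), with a log2 fold change of 0.020 (SE 0.144, 95% interval -0.32 to 0.36, limma adjusted p = 0.957).

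BRAF encodes the RAF kinase with the highest basal activity, which is the form most often mutated in human cancer, and spans positions 140419127 to 140624729 of chromosome 7 (minus strand). The control libraries had BRAF mRNA at 7.44, 9.49 and 7.20 FPKM, and the Ephexin1-depleted libraries at 9.99, 11.6 and 9.61 FPKM. It was the only one of the genes whose groups did not overlap (1 of 7, against 28.3% of all genes tested and 12.8% in the direction of higher shEphexin1). The gap was narrow, since the highest control, replicate 2, lay just under the lowest shEphexin1 library, replicate 3. The means were 8.05 ± 1.26 FPKM and 10.4 ± 1.07 FPKM (SD, n = 3 each), with a log2 fold change of 0.37 (SE 0.152, 95% interval 0.016 to 0.73). The unadjusted limma p was 0.0425, the adjusted p was 0.198 and the two-sided exact permutation p was 0.1, the smallest possible. NRAS and BRAF were the 2 genes with an unadjusted p of at most 0.05, against 23.3% of all genes tested.

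MAP2K1 encodes MEK1 and MAP2K2 encodes MEK2, the dual-specificity kinases that phosphorylate ERK on a threonine and a tyrosine. MAP2K1 spans positions 66679175 to 66783994 of chromosome 15 (plus strand), and MAP2K2 spans positions 4090319 to 4124119 of chromosome 19 (minus strand). MAP2K1 mRNA measured 30.7, 26.0 and 32.6 FPKM with the control shRNA and 30.6, 23.6 and 27.2 FPKM with the Ephexin1 shRNA, with means of 29.8 ± 3.35 and 27.1 ± 3.50 FPKM (SD, n = 3 each). The replicate 1 libraries were almost equal, and the groups overlapped. The log2 fold change of MAP2K1 was -0.14 (SE 0.140, 95% interval -0.46 to 0.19, limma adjusted p = 0.623). MAP2K2 mRNA measured 93.4, 70.7 and 102 FPKM with the control shRNA and 81.4, 53.2 and 87.8 FPKM with the Ephexin1 shRNA, with means of 88.8 ± 16.3 and 74.1 ± 18.4 FPKM (SD, n = 3 each). Replicate 2 was far below its companions in both groups, and the difference between groups was smaller than this spread. The log2 fold change of MAP2K2 was -0.28 (SE 0.220, 95% interval -0.79 to 0.24, limma adjusted p = 0.515).

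MAPK3 encodes ERK1, the kinase at the end of the cascade, and spans positions 30125426 to 30134827 of chromosome 16 (minus strand). The control libraries had MAPK3 mRNA at 16.2, 11.1 and 20.3 FPKM, and the Ephexin1-depleted libraries at 12.6, 9.36 and 16.6 FPKM. Every shEphexin1 library was lower than the control of its own number, while the groups as a whole overlapped. The means were 15.9 ± 4.60 and 12.9 ± 3.62 FPKM (SD, n = 3 each), and the log2 fold change was -0.30 (SE 0.272, 95% interval -0.94 to 0.34, limma adjusted p = 0.571). This was the widest interval of the 7 genes.

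Much of this spread ran with the replicate number. In replicate 2 of both groups, 5 genes (HRAS, ARAF, MAP2K1, MAP2K2 and MAPK3) were lower than the mean of replicates 1 and 3, and NRAS and BRAF were higher. For MAPK3 replicate 2 minus the mean of the other libraries was -0.70 in shControl and -0.62 in shEphexin1 on the log2 scale. For BRAF the same difference was 0.37 in shControl and 0.24 in shEphexin1. In both groups the shift of replicate 2 exceeded the difference between shControl and shEphexin1 for all genes but NRAS and BRAF. The genes lower in replicate 2 have longest coding transcripts with a GC content of 51.0% (MAP2K1) to 66.1% (HRAS), and the genes higher in it have 37.4% (NRAS) and 40.7% (BRAF), where the median of the genes tested is 48.2%. Over 12211 expressed genes, which are not independent replicates, the shift of replicate 2 and GC content had a Spearman's rho of -0.811 within shControl, and of -0.879 within shEphexin1. The cause of this pattern was not tested.

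**Figure D2:**
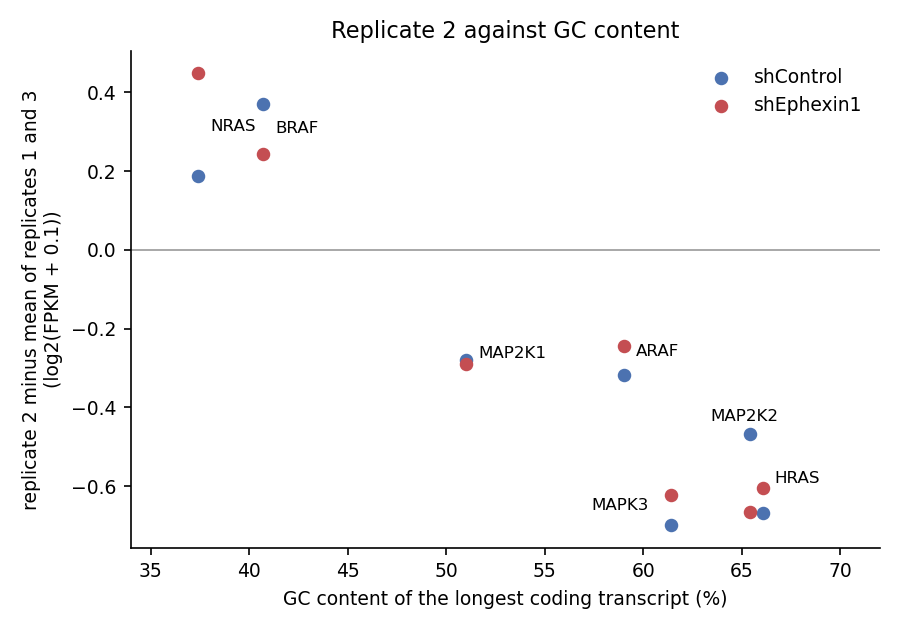
Replicate 2 minus the mean of replicates 1 and 3 (log2(FPKM + 0.1)) against the GC content of the longest coding transcript (%), 1 blue point per gene for shControl and 1 red point for shEphexin1. The 2 genes of lowest GC content, NRAS and BRAF, lie above 0 in both groups, and the other 5 lie below 0 in both.

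The replicate 2 libraries could therefore be compared with each other, while this shift does not pair replicates 1 and 3. Deviations from the group means correlated at 0.234 between the replicate 1 libraries and at 0.513 between the replicate 3 libraries. They correlated at 0.149 between shControl replicate 3 and shEphexin1 replicate 1, so the pairing of replicate 1 is weak. Deviations within a group cancel out, so the shared shift of replicate 2 alone moves replicates 1 and 3 alike. These values therefore do not by themselves pair replicate 1 with replicate 1 or replicate 3 with replicate 3. Libraries of the same number were compared with this limit. The differences of shEphexin1 from shControl in replicates 1, 2 and 3 were -0.48, -0.23 and -0.49 for NRAS and 0.42, 0.29 and 0.41 for BRAF on the log2 scale. They were -0.13, -0.22 and -0.43 for HRAS, -0.20, -0.41 and -0.22 for MAP2K2, and -0.36, -0.25 and -0.29 for MAPK3. MAP2K1 was nearly equal in replicate 1, at -0.0059, and lower in the other pairs. In all 3 pairs, 5 genes were lower and 1 was higher, and ARAF was mixed, where 33% of all genes were lower in each pair and 29.2% higher. With 3 pairs, an exact sign-flip test cannot give a p under 0.25.

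With the replicate number as a block in the limma fit, the same log2 fold changes had smaller errors. The adjusted p was then 0.00568 for NRAS (95% interval -0.56 to -0.25), 0.00994 for BRAF (0.20 to 0.54), 0.0106 for MAP2K2 (-0.41 to -0.15) and 0.0113 for MAPK3 (-0.44 to -0.16). HRAS (adjusted p = 0.0376), MAP2K1 (0.138) and ARAF (0.843) remained above 0.025 in this limma fit. These 4 of 7 genes at an adjusted p of at most 0.025 stand against 25.7% of all genes tested in the same fit, 15.7% lower and 10.1% higher in shEphexin1. That share was not matched to the 7 genes for expression level, so it shows no excess among them. All 4 differences were under the 2-fold threshold, so no member was called with the block either.

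When every library was adjusted for the GC content and length of its transcripts, without the block, limma left NRAS at -0.31 (adjusted p = 0.0032), BRAF at 0.40 (0.00284) and MAP2K2 at -0.27 (0.0123). MAPK3 was then at -0.34 (adjusted p = 0.0275) and HRAS at -0.20 (0.0549), outside the limit. That is 3 of 7 genes, against 24.5% of the genes in that limma fit. With replicates 1 and 3 alone, the adjusted p was at most 0.025 for NRAS, at a log2 fold change of -0.49 (limma adjusted p = 0.0188), and for no other of the 7 genes (1 of 7, against 10.6% of all genes). A limma term for replicate 2 as a library batch brought 3 of 7 genes to that limit (NRAS, BRAF and MAP2K2), against 21.7% of all genes tested. These shares were likewise not matched for expression level. MAPK3 had a limma adjusted p of 0.110 with that term, so its 0.0113 with the block depends on how replicates 1 and 3 are paired.

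**Figure D3:**
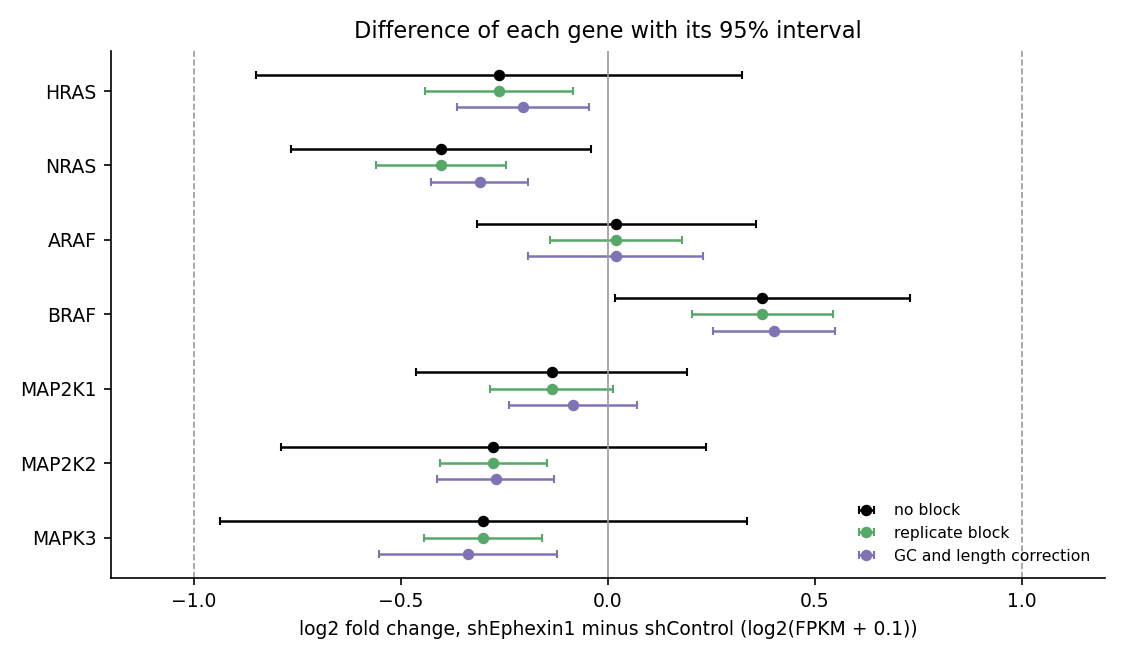
Log2 fold change of shEphexin1 over shControl (log2(FPKM + 0.1)) with its 95% interval for each gene, without a block (black), with the replicate block (green) and after correction for GC content and transcript length (purple), where dashed lines mark a 2-fold difference. All intervals lie between the dashed lines, and those of NRAS and BRAF lie on 1 side of 0 in each of the 3 fits.

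BRAF lies in a stretch of chromosome 7 where other genes were higher too. The 28 expressed genes within 5 Mb of BRAF had a median log2 fold change of 0.29, which leaves 0.078 of the BRAF difference of 0.37. The neighbours of NRAS (51 genes) had a median of -0.079 and left -0.32, those of MAPK3 (81 genes) -0.062 and left -0.24, and those of MAP2K2 (167 genes) -0.016 and left -0.26. For HRAS, the 55 neighbours had a median of 0.091, opposite in sign to the gene itself. Those of MAP2K1 (64 genes) had a median of -0.063, which leaves -0.073 of its -0.14. Those of ARAF (57 genes) had a median of -0.0089 and left 0.029. Whether copy number differed between the cells was not tested.

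FPKM are scaled by transcript length, so the levels of the genes can be set in order. They are not scaled for GC content, which the shift of replicate 2 followed, so orders and folds between genes of unlike GC content are approximate. Over all 6 libraries MAP2K2 had the highest mean at 81.5 FPKM, followed by NRAS at 36.5 and MAP2K1 at 28.4 FPKM. MAP2K2 exceeded NRAS 2.23-fold with no overlap between their ranges, whereas NRAS was above MAP2K1 in 4 of 6 libraries and their ranges overlapped. HRAS at 16.2 FPKM was below MAP2K1 in every library without overlap. MAPK3 at 14.4, ARAF at 9.76 and BRAF at 9.22 FPKM followed. Within each library HRAS was above MAPK3 and MAPK3 above ARAF (6 of 6 for both), although their ranges over the libraries overlapped. ARAF was above BRAF in 4 of 6 libraries and below it in replicate 2 of both groups, and their ranges overlapped.

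The balance within each pair of paralogs was compared as the ratio of their levels. HRAS mRNA was 0.437, 0.283 and 0.601 of NRAS mRNA in shControl and 0.557, 0.285 and 0.628 of it in shEphexin1. ARAF mRNA was 1.36, 0.878 and 1.47 times BRAF mRNA in shControl and 1.03, 0.754 and 1.08 times in shEphexin1. The MAP2K1 to MAP2K2 ratio was 0.329, 0.369 and 0.319 in shControl and 0.376, 0.444 and 0.311 in shEphexin1. The ratios overlapped between the groups for all 3 pairs of genes. Between libraries of the same number, the ARAF/BRAF ratio was lower in shEphexin1 in all 3 replicates, the HRAS/NRAS ratio was higher in all 3, by little in replicate 2, and the MAP2K1/MAP2K2 ratio was mixed. On the log2 scale they differed by 0.14 for HRAS/NRAS (two-sided exact permutation p = 0.7), -0.35 for ARAF/BRAF (exact p = 0.3) and 0.14 for MAP2K1/MAP2K2 (exact p = 0.6), each with an adjusted p of 0.7 over the 3 pairs. These tests could not have given a p under 0.1, and a test over the 3 replicate pairs none under 0.25, so they leave a difference of this size undecided.

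The sums of paralogs varied less between libraries than their parts for RAS and RAF. HRAS and NRAS together summed to 59.5, 57.7 and 60.3 FPKM in the control libraries and to 46.0, 49.3 and 43.5 FPKM in the Ephexin1-depleted libraries, which is 59.2 ± 1.32 against 46.2 ± 2.91 FPKM (SD, n = 3 each) and 78.1% of the control. ARAF and BRAF together summed to 17.6, 17.8 and 17.8 FPKM with the control shRNA and to 20.3, 20.3 and 20.0 FPKM with the Ephexin1 shRNA, or 114% of the control. The groups did not overlap for either sum, and within each of these pairs replicate 2 was shifted in opposite directions. MAP2K1 and MAP2K2 together summed to 124, 96.7 and 135 FPKM in the control libraries and to 112, 76.8 and 115 FPKM in the Ephexin1-depleted libraries, and these groups overlapped. The sums were formed after the values had been seen and are a description without a test. They leave out other genes of these families.

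**Figure D4:**
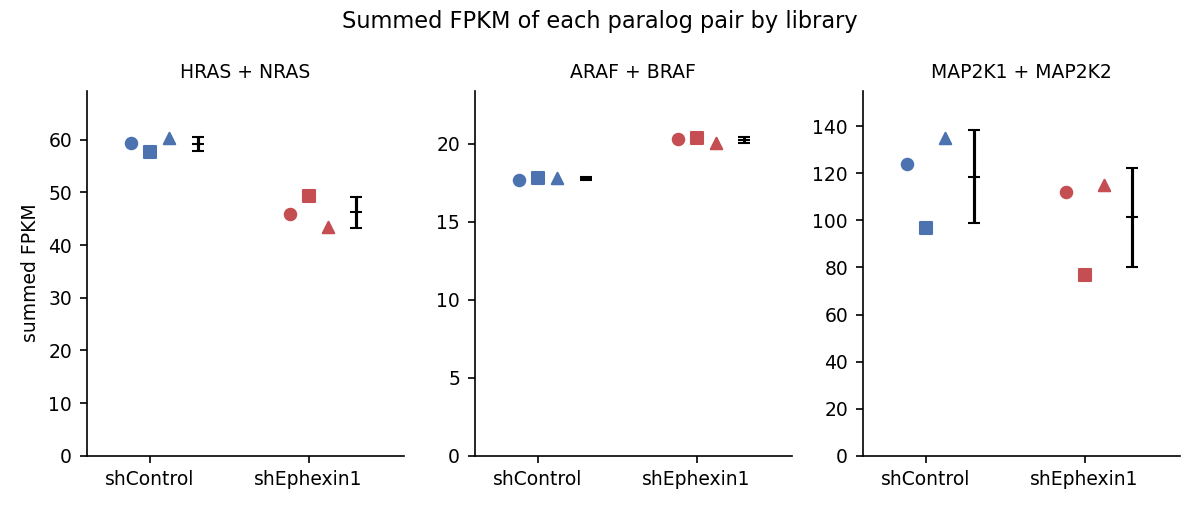
Summed FPKM of HRAS and NRAS, of ARAF and BRAF, and of MAP2K1 and MAP2K2 in each library, with a marker shape for each replicate number and the group mean ± SD beside the points. The RAS sum is lower in all 3 shEphexin1 libraries, at 43.5 to 49.3 FPKM, the RAF sum is higher in all 3, at 20.0 to 20.3 FPKM, and the MEK sums overlap.

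Among the proteins that set RAS activity, exchange factors load GTP and GTPase-activating proteins (GAPs) return RAS to its GDP form. Calls in this and the following lists stand against 1.89% of all genes tested. Of 17 exchange factors and adaptors tested, 0 were called higher and 1 lower in shEphexin1. That gene, RASGRP3, an exchange factor activated by diacylglycerol, measured 0.453, 0.554 and 0.683 FPKM with the control shRNA and 0.0535, 0.0608 and 0.150 FPKM with the Ephexin1 shRNA (log2 fold change -1.84, SE 0.315, limma adjusted p = 0.0198). Its level was below 1 FPKM in all libraries. It met the 0.1 FPKM filter through the shControl libraries, where it was high, while shEphexin1 replicates 1 and 2 lay under it. The size of its difference depends on the 0.1 FPKM added before the logarithm. With 0.01 or 1 FPKM added instead it was not called, so its adjusted p carries little weight. RASGRP2, of the same family, had a log2 fold change of 0.90 (limma adjusted p = 0.119). Of 8 GAPs tested, 0 were called, 7 had a positive log2 fold change and their median was 0.17, against -0.0093 over all genes tested. The share of positive changes over all genes was not counted, so the signs within a list are a description. RASA4, a calcium-responsive GAP, went from a mean of 1.91 to 3.20 FPKM (0.72, limma adjusted p = 0.0523).

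Of 13 genes of RAS maturation and membrane traffic, which cover prenylation, palmitoylation and delivery to the membrane, 0 were called and the median was 0.10. ARL2, a GTPase that releases prenylated cargo, was at -0.45 (limma adjusted p = 0.234), and LZTR1, an adaptor for degradation of RAS proteins, at 0.45 (0.280). Of 21 RAS-related GTPases tested, 1 was called. This was RRAD, an atypical RAS-like GTPase that inhibits calcium channels, with 4.79, 3.53 and 6.52 FPKM in the control libraries and 18.4, 10.4 and 21.0 FPKM in the Ephexin1-depleted libraries (log2 fold change 1.71, SE 0.310, limma adjusted p = 0.0230). RAP2A had means of 12.7 and 8.27 FPKM (-0.61, limma adjusted p = 0.0548).

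Of 12 other RAS effectors tested, 0 were called. TIAM1, a RAC exchange factor that binds RAS, had means of 8.44 ± 0.504 and 5.51 ± 0.0742 FPKM (SD, n = 3 each, log2 fold change -0.60, limma adjusted p = 0.0297). RASSF3, of a family of RAS-binding adaptors, had means of 13.7 ± 0.485 and 9.08 ± 0.157 FPKM (-0.59, limma adjusted p = 0.0224), past the limit on p and under the 2-fold limit. Of 28 scaffolds and regulators of the cascade, 0 were called, 23 had a negative log2 fold change and the median was -0.17, against -0.0093 over all genes tested. The share of negative changes over all genes was not counted, so this too is a description. The prohibitins PHB and PHB2, mitochondrial proteins of which PHB also binds RAF, were at -0.91 (limma adjusted p = 0.0306) and -0.65 (0.0365).

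In the parallel MAPK modules, which respond to stress and cytokines, 1 of 26 genes tested was called. MAPK10, the JNK isoform best known from neurons, measured 0.289, 0.391 and 0.184 FPKM with the control shRNA and 0.937, 1.17 and 0.999 FPKM with the Ephexin1 shRNA (log2 fold change 1.58, SE 0.270, limma adjusted p = 0.0198). MAPK13, a p38 isoform, was at 0.88 (limma adjusted p = 0.0777). Among kinases and transcription factors downstream of ERK, 0 of 17 were called, and their largest differences were -0.33 for ETS2 (limma adjusted p = 0.416) and -0.31 for ETV1 (0.365).

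Of 24 feedback and early genes that ERK induces, 0 were called, 14 had a positive and 10 a negative log2 fold change, and the median was 0.031. EGR1, an immediate-early transcription factor, measured 2.94, 3.15 and 2.74 FPKM with the control shRNA and 5.21, 5.20 and 5.86 FPKM with the Ephexin1 shRNA (0.86, limma adjusted p = 0.0158), under the 2-fold limit. EGR3 was near or at 0 in shControl and reached 0.130 to 0.195 FPKM in shEphexin1. It was tested only because the 3 shEphexin1 libraries, where it was high, reached 0.1 FPKM. Its limma adjusted p of 0.0801 therefore carries no weight. PHLDA1 measured 102 to 109.5 FPKM in the control libraries and 60.6 to 77.6 FPKM in the Ephexin1-depleted libraries (-0.59, limma adjusted p = 0.0312), and DUSP2 was at 0.76 (0.430).

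Over all 9 lists, 3 of 166 genes tested were called (1.81%, against 1.89% of all genes tested), 2 higher and 1 lower. The groups did not overlap for 43 of the 166 (25.9%, against 28.3% of all genes), and 81 log2 fold changes were positive and 85 negative. The 3 calls depended on the libraries used. With any 1 of the 6 left out, RASGRP3 and MAPK10 were no longer called, and RRAD was called in the fit without shEphexin1 replicate 2 and in none of the other 5, so that 0 or 1 gene remained. With replicates 1 and 3 alone, MAPK10 and RRAD were called and RASGRP3 was not.

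With the replicate block the same 3 genes were called, and 35.5% of the 166 genes had a limma adjusted p of at most 0.025 at any fold (22 higher and 37 lower), against 25.7% of all genes tested in that fit. The share was 57.1% for scaffolds and regulators (4 higher, 12 lower), 41.7% for feedback and early genes (5 higher, 5 lower) and 41.2% for exchange factors and adaptors (3 higher, 4 lower). It was 38.5% for maturation and membrane traffic (2 higher, 3 lower), 30.8% for the parallel MAPK modules (3 higher, 5 lower) and 28.6% for RAS-related GTPases (1 higher, 5 lower). The lowest shares were 25% for GAPs (2 higher, 0 lower), 25% for other effectors (1 higher, 2 lower) and 11.8% downstream of ERK (1 higher, 1 lower). The 25.7% of all genes was not matched to the lists for expression level, and the lists were chosen with earlier results of these data known. These shares are therefore a description.

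**Figure D5:**
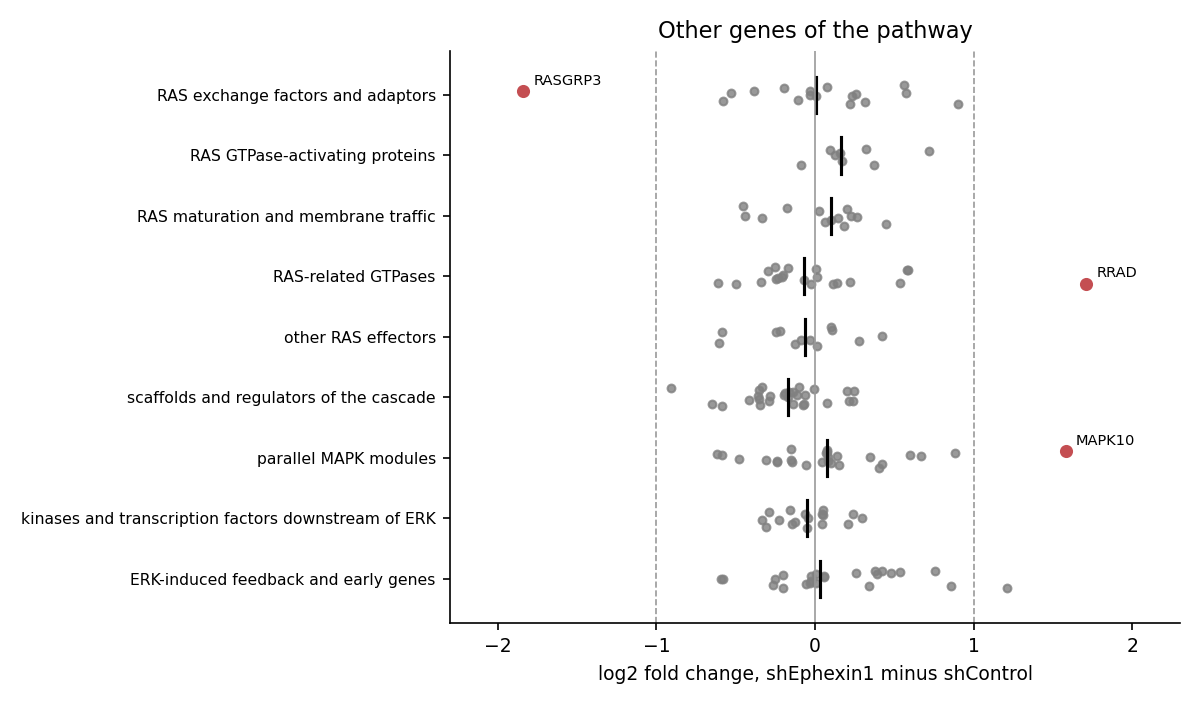
Log2 fold change of shEphexin1 over shControl for the tested genes of the 9 pathway lists, 1 point per gene, with a black bar at each list's median, dashed lines at a 2-fold difference and called genes in red. RASGRP3 lies at -1.84, MAPK10 at 1.58 and RRAD at 1.71, and the medians of the lists lie between -0.17 and 0.17.

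Annotation limits how far some of these values belong to 1 gene. The spans of BRAF, MAP2K1 and ARAF overlap NDUFB2, SNAPC5 and SYN1 on the opposite strand. The library kit preserves strand, but whether the counting used it is not given in the sources used here. Pseudogenes of ARAF, BRAF and MAP2K1 are annotated and are not listed in the table, so reads of near-identical sequence could have been assigned to the parent gene. HRAS overlaps an annotated long noncoding RNA gene on the opposite strand, which is not listed either. NRAS, MAP2K2 and MAPK3 had no overlapping annotated gene.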

How the data were processed

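RNA-seq was analysed from 3 shControl and 3 shEphexin1 libraries of H1299 cells, grouped by their titles. Per the labels and the study's methods, TRIzol-extracted total RNA was converted to libraries with a strand-preserving kit, and reads were mapped to GRCh37/hg19 with TopHat 2.0.13 and quantified with Cuffdiff of Cufflinks 2.2.1 (geometric normalization, pooled dispersion). The deposited values are the authors' FPKM per gene and library. Read counts are not part of them, so depth is unknown, counting error could not be separated from other spread, and low genes are the least certain. The gene annotation is not given in the sources used here.

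A gene was tested when 3 or more libraries reached 0.1 FPKM (16020 of 26255). Deposited FPKM were converted to log2(FPKM + 0.1) and fitted with limma 3.58.1 under R 4.3.3 by lmFit and trended eBayes. The p values were adjusted by the Benjamini-Hochberg method over the whole table tested. The thresholds (adjusted p of 0.025, fold of 2) follow the study. The fit was also run on simulated data with independent noise for each gene and library. That simulation left out the shift of replicate 2 shared across genes, so it does not bear on that shift. Ratios were compared with two-sided exact permutation tests in SciPy 1.17.1. Annotation, GC content and transcript length came from GENCODE release 44 on GRCh37, which matched 23759 of 26253 distinct symbols and gave GC content for 15204 of the genes tested.

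Deviations from the group means correlated between same-numbered libraries at 0.234, 0.639 and 0.513 over 12638 genes of at least 1 FPKM on average. The highest value between libraries of unlike number was 0.149, for shControl replicate 3 with shEphexin1 replicate 1. The labels give only the numbers, so the pairing rests on this check, and the shared shift of replicate 2 feeds into each of these values. The blocked fit stands beside the unblocked one where it moved a member past 0.025, and for the pathway lists as counts. The members and pathway lists were chosen with earlier results of these data known. Named were all members, NGEF, the called genes of each list and, where fewer than 2 were called, its genes of largest difference (up to 2, or 4 for feedback and early genes), and 2 genes most like each member. Other genes of the RAS, RAF and ERK families, and some genes that this rule names, are not reported here. Alternatives were other pseudocounts (0.01 and 1 FPKM), filters, scalings, corrections and left-out libraries.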

Additional observations from a re-analysis of the deposited data

How the results depend on the processing

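None of the 7 genes was called in any alternative fit, which included pseudocounts, filters, median centring, quantile normalization, the variants of eBayes and each library left out. The replicate block kept each log2 fold change (-0.40 for NRAS, 0.37 for BRAF, -0.28 for MAP2K2, -0.30 for MAPK3) and brought these 4 to an adjusted p of at most 0.025, and it changed no other member's side of that limit. A term for replicate 2 as a batch did so for NRAS (-0.40, limma adjusted p = 0.00878), BRAF (0.37, 0.0109) and MAP2K2 (-0.28, 0.0213), and not for MAPK3 (-0.30, 0.110). Correction for GC content and length did so for NRAS (-0.31), BRAF (0.40) and MAP2K2 (-0.27), and with the block also for MAPK3 (-0.34), and replicates 1 and 3 alone did so for NRAS (-0.49). Subtraction of the median of neighbouring genes left 0.078 for BRAF and -0.073 for MAP2K1. ARAF, near 0, changed sign with replicates 1 and 3 alone (-0.0044) and ranged from -0.086 to 0.10 with single libraries left out. The same omissions gave -0.48 to -0.061 for HRAS, -0.55 to -0.29 for NRAS, 0.29 to 0.50 for BRAF, -0.23 to -0.039 for MAP2K1, -0.43 to -0.054 for MAP2K2 and -0.53 to -0.093 for MAPK3. The HRAS/NRAS ratio difference ranged from -0.14 to 0.49 and was negative without shControl replicate 2 (-0.14) or shEphexin1 replicate 3 (-0.078), ARAF/BRAF ranged from -0.58 to -0.19 and MAP2K1/MAP2K2 from 0.015 to 0.27. Over the alternatives that gave a p, the adjusted p lay between 0.0032 and 0.411 for NRAS and between 0.0028 and 0.470 for BRAF.

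Across all genes, 303 were called, 143 higher and 160 lower (47.2% higher). The count was 556 with the replicate block (309 higher, 247 lower), 564 with the batch term (312 and 252), 544 after correction for GC content and length (313 and 231, 57.5% higher), 533 with both (313 and 220, 58.7% higher), 139 at a pseudocount of 1 FPKM, 464 at an adjusted p of 0.05, and 61 to 316 with 1 library left out. Of the pathway genes, 3 were called, against 1 with a filter of 1 FPKM (RRAD), 1 without a filter (RASGRP3), 0 at a pseudocount of 0.01, 1 at a pseudocount of 1 FPKM (RRAD), and 0 to 1 with 1 library left out. Quantile normalization lost MAPK10 (2 called), replicates 1 and 3 alone lost RASGRP3 (2 called), and eBayes without trend called 3 with EGR3 in place of RRAD. EGR3 passed the filter only through the shEphexin1 libraries, so that call carries no weight. The paralog sums and their alternatives were chosen after seeing the data. After GC correction they differed by -0.28 for RAS, 0.21 for RAF and -0.22 for MEK on the log2 scale, against -0.36, 0.19 and -0.24, with no overlap between groups, and with single libraries left out the MEK sum ranged from -0.38 to -0.050. The cause of these movements was not tested, and the unknown depth limits the genes under 1 FPKM most.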

Other observations

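Genes whose log2(FPKM + 0.1) closely followed each member over the 6 libraries were named among 12638 expressed genes as a description. HRAS was most like TMEM219 and LZTS2 (Pearson's r = 0.998 for both), MAP2K2 most like STARD8 (0.999) and HNRNPL (0.998), and MAPK3 most like ARHGEF11 (0.998) and UBL7 (0.997). NRAS was most like PIGN (0.999) and BRAF most like TACC1 (0.996) and TMEM131 (0.995). ARAF was most like PDDC1 (0.999) and DLX2 (0.998), and TRMT44 followed MAP2K1 at 0.996. With 6 libraries that share a GC-related shift in replicate 2, high values were common, and between 548 genes (for MAP2K1) and 1352 genes (for HRAS) exceeded 0.9. Among the members, HRAS correlated with MAP2K2 at 0.964 and with MAPK3 at 0.960, and with BRAF at -0.856 and NRAS at -0.239.

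The differences of the members were of ordinary size for this experiment. A larger absolute log2 fold change was fitted for 23.6% of expressed genes than for NRAS, for 26.7% than for BRAF, for 35.6% than for MAPK3 and for 94.8% than for ARAF.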
